A study of Mus musculus with 192 samples.

Results

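Imprinted genes were followed across 96 wells labelled as single mouse embryonic stem cells. They were of the R1 line, an established line derived from the inner cell mass of the mouse blastocyst. The label was not checked for each well, and some wells, such as D02 and E02, had high markers of feeder fibroblasts, as given below. The set holds 32 genes known to be imprinted in the mouse, or to lie in an imprinted domain and be imprinted in some tissues, and each was found by its feature name among 24264 genes of a molecule count table. Of these, 29 had a molecule in any well, and Snrpn, Slc22a18 and Nap1l5 had none. The cells were grown on irradiated mouse embryonic fibroblast feeders, which were left to settle before harvest. Dead and early apoptotic cells were removed with annexin V beads, and the rest were frozen, thawed and captured on 1 microfluidic chip, where RNA with a poly(A) tail was reverse transcribed together with synthetic spike-in RNAs. No well had another genotype or treatment. The series also holds each of the 96 libraries after 9 further PCR cycles, but the table has 1 column per cell barcode for both forms.

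In imprinted genes only the copy inherited from the mother or only that inherited from the father is active, and the mark that tells them apart is DNA methylation laid down in the germ line at a control region. Most imprinted genes lie in clusters in which one control region sets the expression of several genes, often through a long noncoding RNA such as Kcnq1ot1. Many of the products act on fetal and placental growth, with Igf2 as a growth factor from the paternal copy and Igf2r and Grb10 among its opponents. In embryonic stem cells these marks are known to be prone to loss in culture. The molecule counts used here do not separate the maternal from the paternal copy, so the values below are totals over both copies and say nothing on whether imprinting held.

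Each value is a level, the number of molecules per 10000 gene molecules of the well, unless another scale is named. A molecule was counted once whatever the length of its transcript, so levels were not divided by gene length. Wells fell into 2 ranges that were described apart. The 45 low-RNA wells had 8774 to 35543 gene molecules, with a median of 22234, and the 51 RNA-rich wells had 51390 to 573648, with a median of 98750. The median share of mitochondrially encoded genes was 29.1% in the low-RNA wells and 10.4% in the RNA-rich wells. Spike-in totals stood apart in 3 wells, at 36465 in C03 and 55740 in H03 against a median of 6998.5, and at 926 in the low-RNA well H12. All 13 markers of embryonic stem cells were detected in both ranges, and leaving out those 3 wells turned no direction of a member called 2-fold between the ranges. Within the RNA-rich range, 9 wells had a summed level of the epithelial keratins Krt8 and Krt18 of at least 20 and are called keratin-high. The 15 markers of feeder fibroblasts, among them Col1a1 and Vim, reached summed levels of 190 in well D02 and 148 in well E02, against a median of 8.26 in the 42 RNA-rich wells that were not keratin-high and 38.7 in the keratin-high wells. The 96 wells came from 1 culture on 1 chip and are cells, not replicates, so no p-value was computed and every SD is a spread between wells.

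Promoter sequences are shown for members that the results turn on, since imprints are kept through sequence near some of these starts. Windows of 300 bases around the transcription start, from RefSeq on GRCm38.p6, were at hand for 27 members. Those that bear on the results are shown, all 5′ to 3′ on the strand of the gene: the window of Snurf, which is also 1 of the 4 windows of Snrpn, the Peg3 window that overlaps that of Usp29, that of Meg3, whose level was the highest of the members in low-RNA wells, and 1 window each of Igf2 and Mest, members with a higher mean in keratin-high wells, that holds the hexamer described next. Capitals mark each TGCCGC, or GCGGCA where it lies on the other strand, the hexamer that the imprint-keeping protein ZFP57 binds when its CpG is methylated.
Snurf, chr7:60005150-60005449, minus strand: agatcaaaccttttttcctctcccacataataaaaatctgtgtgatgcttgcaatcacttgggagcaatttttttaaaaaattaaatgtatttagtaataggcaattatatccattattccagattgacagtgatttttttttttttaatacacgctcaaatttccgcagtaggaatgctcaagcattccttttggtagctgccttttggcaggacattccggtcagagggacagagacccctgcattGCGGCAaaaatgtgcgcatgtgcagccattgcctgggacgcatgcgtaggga
Peg3, chr7:6730370-6730669, minus strand: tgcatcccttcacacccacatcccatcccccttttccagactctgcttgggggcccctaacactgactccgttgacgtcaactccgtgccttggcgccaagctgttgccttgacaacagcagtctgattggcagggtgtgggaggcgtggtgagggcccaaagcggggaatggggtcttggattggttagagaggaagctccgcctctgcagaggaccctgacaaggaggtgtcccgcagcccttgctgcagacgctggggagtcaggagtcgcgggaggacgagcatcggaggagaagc
Meg3, chr12:109540746-109541045, plus strand: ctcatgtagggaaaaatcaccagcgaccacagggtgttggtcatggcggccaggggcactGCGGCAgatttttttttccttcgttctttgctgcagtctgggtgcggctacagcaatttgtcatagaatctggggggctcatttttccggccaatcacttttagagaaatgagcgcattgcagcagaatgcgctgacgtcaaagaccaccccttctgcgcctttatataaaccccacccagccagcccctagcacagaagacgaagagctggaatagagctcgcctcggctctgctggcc
Igf2, chr7:142661222-142661521, minus strand: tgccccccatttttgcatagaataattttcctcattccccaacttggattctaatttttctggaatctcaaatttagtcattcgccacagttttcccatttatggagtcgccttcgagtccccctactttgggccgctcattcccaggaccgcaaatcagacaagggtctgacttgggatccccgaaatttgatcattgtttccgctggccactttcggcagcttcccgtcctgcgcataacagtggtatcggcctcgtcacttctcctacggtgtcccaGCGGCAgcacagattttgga
Mest, chr6:30737800-30738099, plus strand: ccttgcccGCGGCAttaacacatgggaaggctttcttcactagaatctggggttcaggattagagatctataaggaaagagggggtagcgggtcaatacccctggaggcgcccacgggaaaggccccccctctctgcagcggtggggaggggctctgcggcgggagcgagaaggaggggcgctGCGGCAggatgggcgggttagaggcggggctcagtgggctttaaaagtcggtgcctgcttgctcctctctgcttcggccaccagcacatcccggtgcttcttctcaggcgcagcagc
The hexamer, searched as TGCCGC on both strands, was present once in the Snurf, Meg3 and Igf2 windows and 2 times in that of Mest, and these letters were not in the Peg3 window. Counting windows of identical coordinates once, 10 of the members' 42 windows (23.8%) held it, against 11.6% of all 32817 windows of that table. Windows that overlap in part, such as those of Mest that start at 30737800 and 30737803, were each counted. The members' windows had a median of 13.5 CpG and 58.5% G+C, against 7 CpG and 52.7% over all windows. The hexamer itself holds a CpG, and the shares with a match were not matched for CpG. The 10 members with a match were Copg2, Grb10, Igf2, Meg3, Mest, Nap1l5, Nnat, Plagl1, Snrpn and Snurf. A match is a run of letters and not a measured binding site.

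Snurf and Snrpn could not be told apart in these counts. They encode a small protein and a splicing protein from one paternally expressed transcript, and their exons overlap on the same strand in GENCODE M21. Snurf (chr7:59995449-60005049 in GENCODE M21, minus strand) had 1892 molecules, the largest total of the members, and Snrpn had 0. Reads with 1 match in the genome gave 0.0529% of the Snurf molecules. The values below are those of the Snurf row, the cause of the uneven split was not tested, and the 0 of Snrpn in 96 wells, which would allow a share of up to 3.12% of wells with a molecule by counting error alone, is not read as absence of that gene. For Nap1l5 and Slc22a18 the same count of 0 corresponds to fewer than 0.0297 molecules per 10000 over the low-RNA wells and 0.00514 over the RNA-rich wells. Apart from Snurf, unique reads gave at least 90.5% of the molecules of each detected member except Plagl1, with 69.6%.

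In the RNA-rich wells, Snurf had the highest mean level of the members, 3.07 ± 1.97 (SD, n = 51 wells). It was followed by Cd81, a tetraspanin of the cell surface, at 2.30 ± 2.13, the long noncoding RNA Meg3 at 1.89 ± 1.64 and Phlda2, a growth-restraining protein of the placenta, at 1.89 ± 1.84. The gaps between these neighbours were smaller than their spread between wells. Of the paternally expressed members, Peg10 (a retrotransposon-derived gene needed for the placenta), Slc38a4 (an amino acid transporter) and Igf2 had mean levels of 1.01 ± 2.06, 1.01 ± 0.871 and 0.889 ± 2.14. Among the maternally expressed members, H19, which shares its control region with Igf2, and Igf2r, the receptor that removes IGF2 from the surface, lay near 0.25 and 0.220, and the cell cycle inhibitor Cdkn1c at 0.436 ± 0.849. Usp29, Dlk1 and Ascl2, the last a transcription factor of the trophoblast, each had under 20 molecules in all 96 wells.

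**Figure D1:**
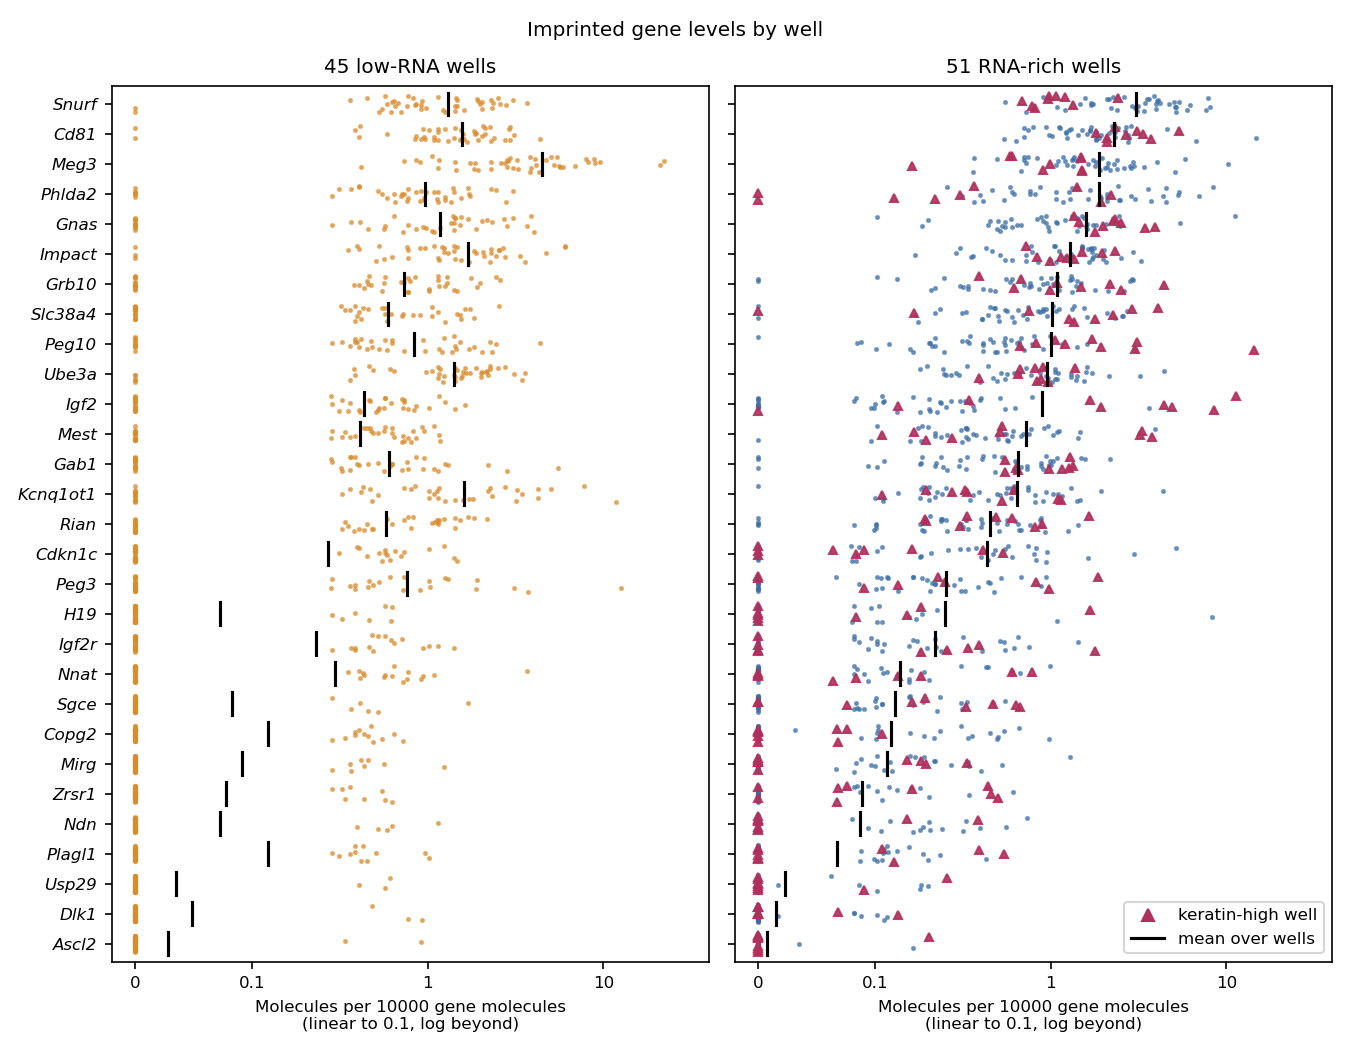
Level of each detected imprinted gene (rows, ordered by mean in RNA-rich wells) in 45 low-RNA wells (left) and 51 RNA-rich wells (right), as molecules per 10000 gene molecules on an axis that is linear to 0.1 and logarithmic beyond; points are wells, triangles the 9 keratin-high wells and black bars the mean. Snurf leads on the right with a mean of 3.07, Meg3 on the left with 4.49, and the highest Igf2 and Peg10 wells are keratin-high.

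Because shares of wells with a molecule follow depth, they were also computed at the lowest total, with every well thinned to 8774 gene molecules. Unthinned, Meg3 was present in all 45 low-RNA and all 51 RNA-rich wells, and at equal depth in an expected 91.2% and 71.2%. The order was the opposite for Snurf, with 43 of 45 and 51 of 51 wells before thinning and 68.1% and 84% after it. Peg3, present in 22 low-RNA and 36 RNA-rich wells, had expected shares of 29% and 17.6% at equal depth. Kcnq1ot1, in 33 and 50 wells, had 54.7% and 37.6%.

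Most members with a mean of at least 1 molecule per well stayed within 2-fold between the low-RNA and RNA-rich wells. Of the 20 members with a mean of at least 1 molecule per well, 3 had a mean level at least 2-fold higher in RNA-rich wells (Snurf, Igf2 and H19), where 12% of all 6324 genes did. Another 4 were at least 2-fold lower there (Meg3, Kcnq1ot1, Peg3 and Nnat), where 3.57% of all genes were. The median log2 ratio was 0.35 over the members and 0.40 over all genes, with 10 members above the latter and 10 below. The ranges share 1 chip, and their difference has no replicate.

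**Figure D2:**
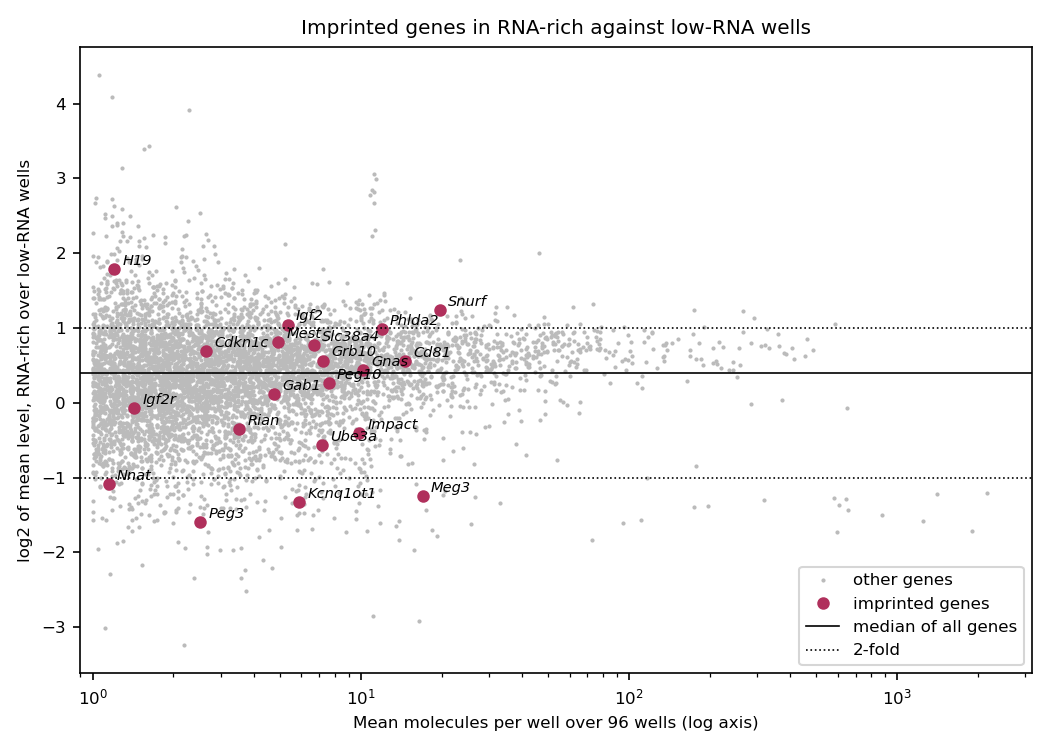
Log2 ratio of mean level in RNA-rich over low-RNA wells (y) against mean molecules per well over 96 wells (x, log axis) for 6324 genes (grey) and 20 imprinted genes (red); the solid line is the median of all genes at 0.40 and dotted lines are 2-fold. Snurf, Igf2 and H19 lie above the upper dotted line and Meg3, Kcnq1ot1, Peg3 and Nnat below the lower one.

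Among the noncoding members, Meg3 and Kcnq1ot1 were lower in RNA-rich wells. Meg3 (chr12:109541001-109571726, plus strand) is expressed from the maternal copy of the Dlk1-Dio3 domain, and its level ran from 0.416 through a median of 3.22 to 22.2 in low-RNA wells and from 0.163 through 1.48 to 10.2 in RNA-rich wells. The ranges overlapped, with 36 of 45 low-RNA wells above the RNA-rich median. The mean was 4.49 ± 4.41 against 1.89 ± 1.64, a ratio of 0.422, and it was 0.423 without the highest well of each range. Kcnq1ot1 (chr7:143203458-143296549, minus strand), the paternal noncoding RNA that silences its cluster, ran from 0 through 1.01 to 11.8 in low-RNA wells and from 0 through 0.514 to 4.36 in RNA-rich wells, with means of 1.60 ± 2.25 and 0.639 ± 0.679. The highest low-RNA wells were partly the same for both RNAs: well C04 had levels of 20.9 for Meg3 and 7.79 for Kcnq1ot1, and well B04 had 22.2 and 5.05. Rian and Mirg, which lie downstream of Meg3, did not pass 2-fold, with Rian at 0.578 ± 0.603 and 0.452 ± 0.365 and Mirg not counted because its mean was under 1 molecule.

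Counted against spike-ins, the same RNAs were close to equal. Per 1000 spike-in molecules, Meg3 had 1.85 ± 2.16 molecules in low-RNA wells and 2.29 ± 1.58 in RNA-rich wells, and Kcnq1ot1 had 0.660 ± 0.997 and 0.779 ± 0.689. The median gene had 4.06 times as many molecules per spike-in in RNA-rich wells as in low-RNA wells, against 1.24 times for Meg3, 1.18 for Kcnq1ot1, 1.10 for Peg3 and 1.69 for Nnat. On that scale no member was 2-fold lower, beside 0.0633% of all genes, and 16 of 20 were at least 2-fold higher, beside 91.7% of all genes, so most genes were. With mitochondrially encoded genes and Rn45s left out of the total, the log2 ratio was -1.65 for Meg3 and -1.71 for Kcnq1ot1. The state of the cells in the low-RNA wells was not measured.

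**Figure D3:**
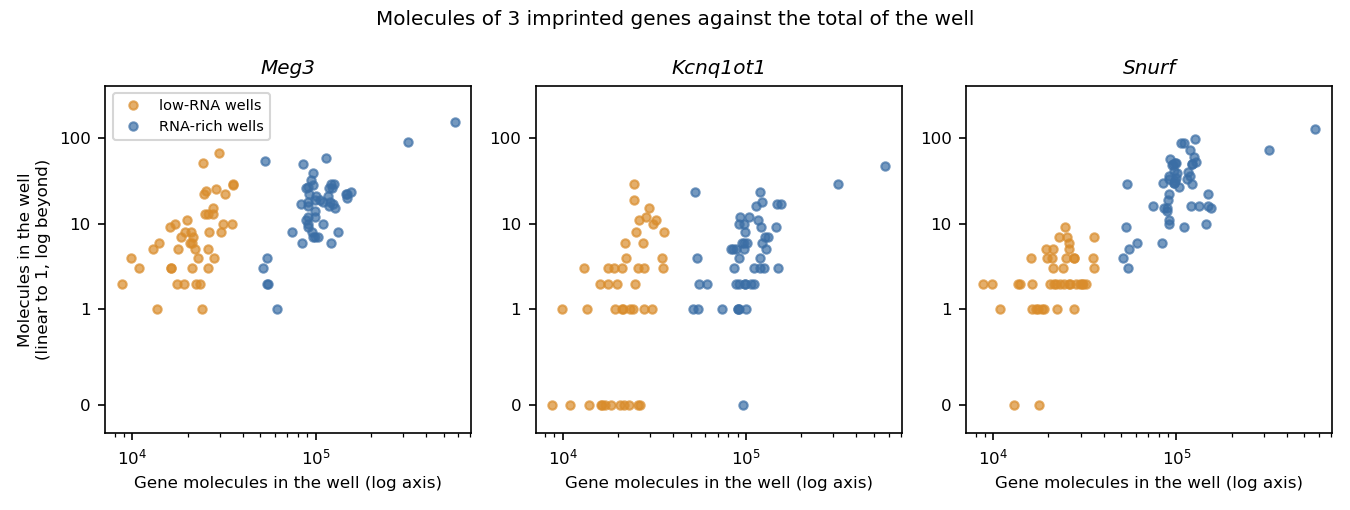
Molecules of Meg3, Kcnq1ot1 and Snurf (y, linear to 1 and logarithmic beyond) against all gene molecules of the well (x, log axis) in 45 low-RNA and 51 RNA-rich wells; each point is a well. Low-RNA wells reach 66 molecules of Meg3 and 29 of Kcnq1ot1 but no more than 9 of Snurf.

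Peg3, a paternally expressed zinc finger protein (chr7:6703892-6730431, minus strand), leaned on 1 well. Its level ran from 0 through a median of 0 to 12.6 in low-RNA wells and from 0 through 0.135 to 1.87 in RNA-rich wells. Means were 0.764 ± 1.98 and 0.253 ± 0.346, a ratio of 0.331, and without the highest well of each range they were 0.495 ± 0.817 and 0.220 ± 0.260. The highest well, A02, was also the highest for Kcnq1ot1. Nnat, a small membrane protein from the paternal copy, had means of 0.295 ± 0.609 and 0.138 ± 0.227. Without the highest well of each range its ratio was 0.555, which is short of 2-fold.

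In Snurf the higher level in RNA-rich wells was spread over many wells. It ran from 0 through a median of 0.976 to 3.66 in low-RNA wells, and from 0.551 through 2.90 to 8.11 in RNA-rich wells. In 17 RNA-rich wells it was above every low-RNA well, and 2 low-RNA wells were above the RNA-rich median. The mean was 1.30 ± 0.839 against 3.07 ± 1.97, a ratio of 2.36. With mitochondrially encoded genes and Rn45s left out of the total, the log2 ratio was 0.82, short of 2-fold, and the all-gene median was then close to 0. Phlda2 lay just short of 2-fold, with a ratio of 1.98 and 9 RNA-rich wells above every low-RNA well, and it was at least 2-fold higher without keratin-high wells, without E02 and D02, or without the 3 wells whose spike-in totals stood apart.

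Igf2 and H19 were called higher in RNA-rich wells through a few wells. Igf2 had means of 0.431 ± 0.425 and 0.889 ± 2.14, but its median was higher in low-RNA wells, 0.403 against 0.206. Without the keratin-high wells its RNA-rich mean was 0.286 ± 0.558 and the log2 ratio -0.59, the other direction. H19 had 108 of its 115 molecules in RNA-rich wells, and 45 of them in well E02. Without wells E02 and D02 its log2 ratio was -0.06.

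Variation between RNA-rich wells was measured against spike-ins, which were added to every chamber in equal amount. The squared coefficient of variation of a gene was divided by that of spike-ins of the same mean, and a gene counted as above technical variation where this ratio was at least 2 with all wells and again without its highest well. Of the 24 members with a mean of at least 1, 11 were above it, beside 6.32% of all 7768 genes. Their median ratio was 2.46, against 1.32 over all genes. The 11 were Igf2, H19, Meg3, Snurf, Cdkn1c, Phlda2, Cd81, Peg10, Mest, Gnas and Slc38a4. The share of all genes depended on the mean required: at a mean of at least 5 it was 13.2% of 3151 genes, beside 9 of 15 members. Without its highest well, the ratio of H19 went from 18.9 to 3.01 (well E02) and that of Peg10 from 14 to 2.44 (well G12), below Phlda2 at 4.73 and Snurf at 3.60, and that of Igf2 was 11.8. Grb10, an adaptor that restrains insulin signalling, lay just outside, with 2.51 for all wells and 1.99 without the highest, and Slc38a4 just inside, with 2.50 and 2.03, and not above it without C03 and H03.

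The wells that carried this variation were not the same for all of them. Without the 9 keratin-high wells, 6 members were above technical variation (Meg3, Snurf, Cdkn1c, Phlda2, Cd81 and Gnas; 5.43% of all genes), and without E02 and D02 as well, 5 were (Meg3, Snurf, Cdkn1c, Phlda2 and Grb10; 4.06% of all genes). Without those wells the ratio of Igf2 was 0.634, below that of spike-ins of the same mean. H19 had a mean of 0.388 molecules there, under the minimum of 1, so its ratio of 0.421 is not read. Phlda2 kept a ratio of 5.41 and Cdkn1c of 6.04 there. Phlda2 (chr7:143501545-143503150) ran from 0 through a median of 1.32 to 8.45, with 75 molecules in well E12 and 72 in well H10. Cdkn1c (chr7:143458339-143461050), its neighbour in the Kcnq1ot1 cluster, ran from 0 through 0.163 to 5.21, with 44 molecules in well F10, 22 in A03 and 15 in C10. Well A03 was kept when E02 and D02 were left out, though its feeder markers summed to 40.05 and its embryonic stem cell markers to 46.7. Impact, a regulator of translation under stress, Rian and Gab1, a docking protein of growth factor signalling, had ratios of 1.21, 1.00 and 1.16, close to spike-ins.

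**Figure D4:**
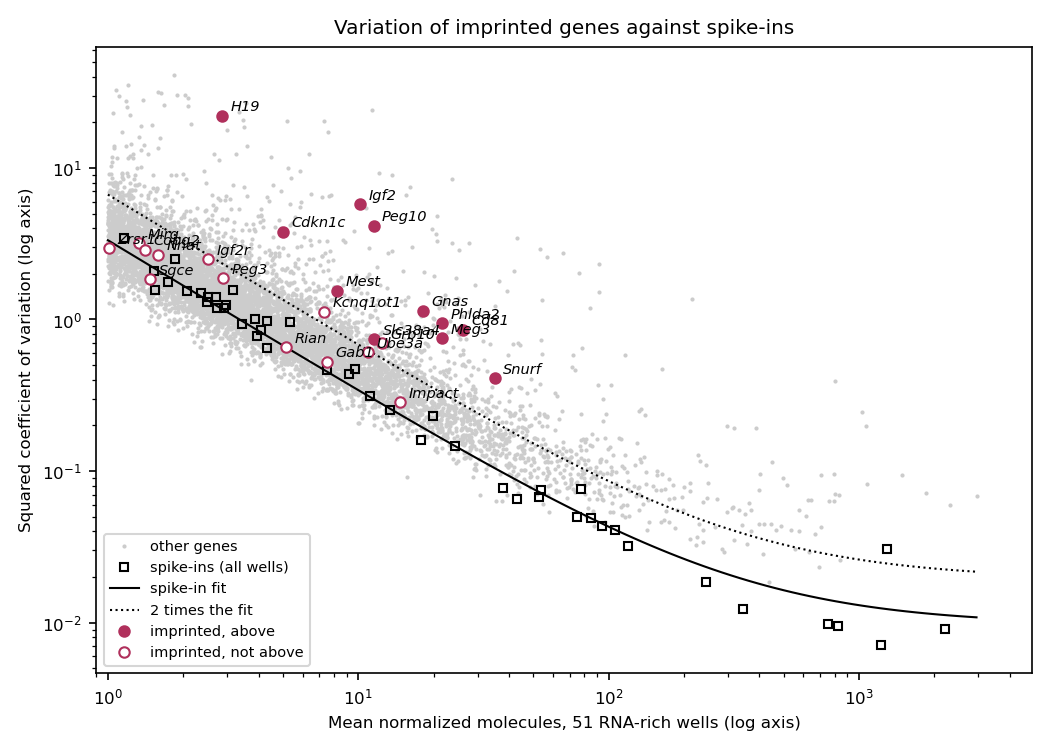
Squared coefficient of variation (y, log axis) against mean normalized molecules (x, log axis) over 51 RNA-rich wells for 7768 genes (grey), imprinted genes above (filled red) and not above (open red) technical variation, and spike-ins (squares, over all wells) with their fit (line) and 2 times the fit (dotted). With all wells H19, Igf2 and Peg10 lie farthest above the fit, with ratios of 18.9, 17.2 and 14, which were 3.01, 11.8 and 2.44 without the highest well of each, and Impact and Rian lie near it.

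Several members differed in level between the keratin-high wells and the other RNA-rich wells, in both directions. Of the 25 members with a mean of at least 1 molecule in RNA-rich wells, 6 had a mean level at least 2-fold higher there than in the other 42 RNA-rich wells (Igf2, Peg3, Peg10, Sgce, Mest and Zrsr1), beside 8.91% of all 7765 genes, and 5 were at least 2-fold lower (Meg3, Snurf, Cdkn1c, Phlda2 and Copg2), beside 10.5% of all genes. By parental copy, beside the same shares of all genes, 6 of 12 paternally expressed members were higher and 1, Snurf, was lower. Of 8 maternally expressed members, none was higher and 3 were lower. Short of 2-fold, the maternally expressed Igf2r, Rian and Cd81 had higher means there, at 1.67, 1.46 and 1.37 times. H19 and Mirg had lower ones, at 0.92 and 0.79 times. By medians of wells in place of means, which allowed 19 members, 6 were higher (Igf2, Peg10, Sgce, Gnas, Slc38a4 and Gab1; 12.6% of all genes) and 3 lower (Snurf, Cdkn1c and Phlda2; 7.47% of all genes), so that Mest, Peg3, Zrsr1, Meg3 and Copg2 were called by means alone. Without wells E02 and D02 among the others, 8 members were higher, beside 9.73% of all genes, with H19, a maternally expressed one, and Gnas added. These wells were set apart in earlier results of the same data in which Igf2 led, so this is a description of them. Markers of feeder fibroblasts were summed to 13.3 to 76.5 in these wells, with a median of 38.7 against 8.26 in the other RNA-rich wells. Of these 15 markers, 13 had a molecule there, and Col6a1 and Thy1 were at 0. Markers of embryonic stem cells were summed to 19 to 95.9, with a median of 44.3 against 112 in the other RNA-rich wells. The 8 trophectoderm markers, which include Krt8 and Krt18, summed to a median of 48.5 there against 3.04 in the other RNA-rich wells. Krt8 and Krt18 alone had medians of 45.1 and 2.91. The wells were chosen by these 2 genes, so most of this contrast was set by the choice. Elf5, another of the 8, was at 0 in every well. The 7 markers of primitive endoderm summed to at most 1.48 in keratin-high wells, with Gata6, Sox17 and Sox7 at 0. The part of these other cell types in the levels was not tested.

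Igf2 (chr7:142650766-142666816, minus strand) showed the largest ratio in these wells. Its levels were 11.4 in H07, 8.56 in A11, 4.91 in F12, 4.41 in A09, 1.93 in D08, 1.67 in G10, 0.343 in H05, 0.135 in G12 and 0 in A06. In the other RNA-rich wells it ran from 0 through a median of 0.192 to 3.61, and the highest of these was D02. So 6 keratin-high wells lay above every other RNA-rich well but D02, and 3 lay within the range of the rest. The means were 3.70 ± 4.02 (n = 9 wells) and 0.286 ± 0.558 (n = 42), a ratio of 13.0.

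The wells with the highest levels of Igf2 were not those with the highest levels of H19, except D02. In H07, with 136 molecules of Igf2, there was 1 molecule of H19, and in A11, with 44, there was none. Well G12 had 25 molecules of H19 and 2 of Igf2, and E02 had 45 and 2. D02 had 20 of Igf2 and 6 of H19, and the wells with the most gene molecules also had both, with 36 and 13 in H03 and 25 and 5 in C03, which are levels of 0.628 and 0.227 and of 0.782 and 0.157. The rho of their levels over the RNA-rich wells that were not keratin-high was 0.13, and -0.03 without E02 and D02. Outside G12, no keratin-high well had more than 2 molecules of H19, and its mean there was 0.233 ± 0.549 against 0.254 ± 1.28 in the others, or 0.0329 ± 0.0626 in the others without E02 and D02.

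Peg10, Mest and Sgce followed patterns of their own over the same wells. Peg10 (chr6:4747306-4760517) was above the median of the other wells in all 9, from 0.669 in H07 to 14.5 in G12, which held 215 molecules. Its means were 3.12 ± 4.35 and 0.556 ± 0.524, and 1.70 ± 0.947 and 0.496 ± 0.353 without the highest well of each group. Sgce, a membrane protein read from the same promoter region in the other direction, had means of 0.282 ± 0.259 and 0.0966 ± 0.135. Mest, an enzyme-like protein of the endoplasmic reticulum, was at 3.75 in A09, 3.29 in H05 and 3.23 in G12, and at 0.530 or less in the other 6. The highest Mest level of any well, 3.91, was in A03, which is not keratin-high but had feeder markers summed to 40.05. Peg3, at 0.486 ± 0.627 and 0.203 ± 0.233, and Zrsr1, a splicing factor, at 0.197 ± 0.208 and 0.0654 ± 0.129, completed the 6.

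Snurf and Phlda2 lay on the other side. In the keratin-high wells Snurf ran from 0.686 through a median of 0.980 to 2.42, the last in A06, and in the other RNA-rich wells from 0.551 through 3.28 to 8.11. All 9 keratin-high wells were below the median of the others, and 27 of the 42 others were above all 9. The means were 1.14 ± 0.522 and 3.48 ± 1.91. Phlda2 was at 2.20 in H05, 1.92 in H07 and 1.42 in G12 and at 0.364 or less in the other 6 keratin-high wells, with 0 in A09 and A11, against 0.258 through 1.53 to 8.45 elsewhere. Meg3, with means of 1.03 ± 0.501 and 2.08 ± 1.75, also had all 9 keratin-high wells below the median of the others. Cdkn1c, with 0.150 ± 0.195 and 0.497 ± 0.922, had 7 of 9 below it.

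**Figure D5:**
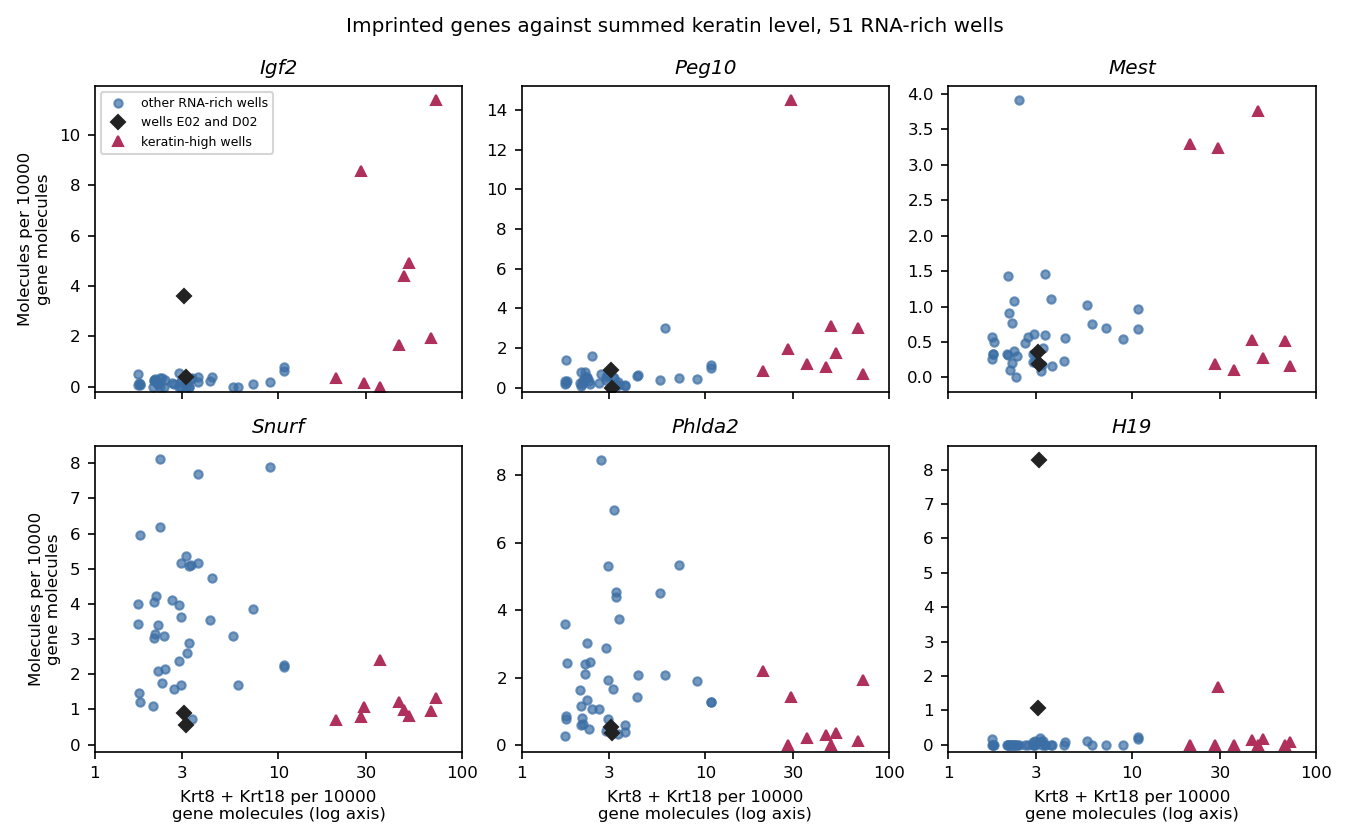
Level of Igf2, Peg10, Mest, Snurf, Phlda2 and H19 (y, molecules per 10000 gene molecules) against the summed level of Krt8 and Krt18 (x, log axis) in 51 RNA-rich wells; triangles are the 9 keratin-high wells, diamonds wells E02 and D02, circles the rest. Igf2 reaches 11.4 among the triangles, Snurf stays at or below 2.42 there, and the highest H19 level, 8.27, is well E02.

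Wells E02 and D02, where markers of feeder fibroblasts were highest, had high levels of another group of members, but not both wells of each member. E02 had the highest level of any well for H19 (8.27), Cd81 (14.7, from 80 molecules), Ube3a (4.41) and Gnas (11.2, from 61 molecules). Gnas encodes the stimulatory G protein alpha subunit and Ube3a a ubiquitin ligase, both imprinted in some tissues only. D02 was second for Cd81 at 6.69 and for Gnas at 5.42. For Ube3a it went the other way, at 0.181 from 1 molecule, the lowest level of the RNA-rich wells. E02 and D02 had 0.551 and 0.904 of Snurf and 0.368 and 0.361 of Meg3, below the medians of the RNA-rich wells. With E02 and D02 left out along with the keratin-high wells, the noise ratio of Cd81 was 1.33 and that of Gnas 1.23, against 7.71 and 7.43 with them. The summed levels of embryonic stem cell markers were 29.8 in E02 and 23.3 in D02, and the part of feeder cells in these levels was not tested.

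Features of small RNAs in the clusters held molecules unevenly. In the Dlk1-Dio3 domain, 71 features lay in the region examined on chromosome 12, which holds Dlk1, Meg3, Rian and Mirg, and 18 had a molecule. All 4 small nucleolar RNA features had molecules, 310 together. AF357425, which overlaps exons of Rian on the same strand, had 168 of them. The mean summed level of the 4 features was 0.401 in low-RNA and 0.465 in RNA-rich wells, near that of Rian itself. Priming was on poly(A) tails, so small nucleolar RNAs cannot be told here from longer transcripts over the same bases, such as Rian. Of 58 microRNA features 7 had a molecule, 27 molecules in all, and these are counts of RNA over the hairpin gene, as poly(A) priming does not capture mature microRNAs. In the Snrpn domain on chromosome 7, 1 of 31 small nucleolar RNA features had molecules, Snord64 with 41, while the noncoding RNA D7Ertd715e, which lies close to Snurf, had 335.

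Transcripts of the machinery that writes and keeps imprints were present in these cells. The list of 16 genes also holds the oxidases Tet1 and Tet2, which act on methylated DNA but do not write or keep the mark. All 16 had a mean of at least 1 molecule. None was at least 2-fold higher in RNA-rich wells, beside 12% of all genes. The 5-methylcytosine oxidase Tet2 alone was at least 2-fold lower (0.413 ± 0.765 against 0.166 ± 0.201), beside 3.57% of all genes. The highest levels in RNA-rich wells were those of Cbx5, a heterochromatin protein, at 3.51 ± 1.90, Trim28, the corepressor that ZFP57 recruits, at 2.56 ± 1.51, the de novo methyltransferase Dnmt3b at 2.33 ± 1.63 and the oxidase Tet1 at 1.99 ± 1.80. Tet1, Dnmt3b and Dnmt3a, 3 of the 16, were above technical variation, with ratios of 5.28, 3.65 and 2.54, beside 6.32% of all genes. Zfp57 itself, named here for its hexamer, was at 0.541 ± 0.676 in low-RNA and 0.374 ± 0.326 in RNA-rich wells with a ratio of 0.969. In keratin-high wells 4 of the 16 were at least 2-fold lower than in other RNA-rich wells, Dnmt3l, Tet1, Tet2 and Dppa3, beside 10.5% of all genes, and none was higher, beside 8.91%.

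Of 49 other imprinted genes or neighbours, 48 were in the table and 37 had a molecule. Only 11 had a mean of at least 1 molecule, against 20 of the 32 members. Among these 11, Tssc4 alone was at least 2-fold higher in RNA-rich wells, beside 12% of all genes. Commd1, in whose intron Zrsr1 lies, Nap1l4, Mrpl23 and Zdbf2 had the highest levels, 1.45 ± 0.827, 1.24 ± 0.597, 0.804 ± 0.575 and 0.609 ± 0.551 in RNA-rich wells. Of 16 tested, 2 were above technical variation, beside 6.32% of all genes. They were Axl, a receptor tyrosine kinase, with a ratio of 3.71, and Sfmbt2, a Polycomb group protein known from extraembryonic tissue, with 3.39. Both were at least 2-fold higher in keratin-high wells, by 4.13 and 3.63 times, beside 8.91% of all genes. Neither was above technical variation without those wells. Kcnq1, which Kcnq1ot1 overlaps on the other strand, had 9 molecules, against 565 of Kcnq1ot1. Other pairs that overlap in exons on opposite strands are Mest and Copg2, Gnas and Nespas, Zrsr1 and Commd1, Igf2 and Igf2os, Ube3a and Snhg14, Cd81 and R74862, Meg3 and Gm26906, and Cdkn1c and Gm44732, and some other members overlap further gene models. Whether the counting of genes used strand is not given in the sources used here, so the counts of all of these are uncertain.

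Few pairs of members varied together in the 42 RNA-rich wells that were not keratin-high. Over 136 pairs of 17 members, the median Spearman rho of levels was 0.01, against 0.02 over all pairs of 3123 genes, and 3 pairs (2.21%) reached 0.4 in size, against 1.67% of all pairs. These wells share a chip and a total as denominator, so each rho is a description. The highest was that of Mest and Impact at 0.49, and the lowest that of Snurf and Cd81 at -0.51, which was -0.43 without E02 and D02. Phlda2 and Gnas had -0.41, and -0.33 without E02 and D02, where 2 pairs reached 0.4 in size. Within clusters, Meg3 and Rian had 0.28, and Meg3 and Kcnq1ot1, which lie on different chromosomes, 0.31.

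The gene with the level most like that of a member was sought by the same rho among the 3123 genes, over 42 wells, for each of the 11 members above technical variation. It was Epcam for Meg3 at 0.65, 2810408I11Rik for Slc38a4 at 0.65, Dut for Snurf at 0.59, Rbbp4 for Phlda2 at 0.58 and Prim1 for Cdkn1c at 0.57. For Gnas it was Lrrc58 at 0.57, for Igf2 Hist1h2bc at 0.56, for Mest 2810417H13Rik at 0.55, for Cd81 Sugt1 at 0.51, for Peg10 Rsrc1 at 0.50 and for H19 Ctsb at 0.50. Each is the highest of 3123 values, and without E02 and D02 they ran from 0.40 for H19 to 0.67 for Slc38a4.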

How the data were processed

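The authors deposited a table of molecule counts by feature and barcode. Per the file headers, a read that matched several places was given to the exonic match nearest to a 5′ end, and a further column counts molecules from uniquely mapped reads only. The submitters' processing notes name Bowtie and mm10 (GRCm38), with no version. Gene rows exclude spike-ins and repeats. All 96 wells were used, and low-RNA (at most 40000 gene molecules) and RNA-rich wells (at least 50000) were described apart. No doublet caller was run, and empty chambers or damaged cells were not recognised.

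Technical variation was fitted as squared CV = a/mean + b (gamma model, identity link) over the 62 of 96 spike-ins whose mean reached 0.1, giving 3.33 and 0.0097. Fold calls needed a mean of at least 1 molecule. The members and lists were chosen with earlier results of these data known. Named genes were all 32 members, 4 genes of each further list by mean level and as many as 4 by ratio among those above technical variation, and the nearest genes by rho, of which the first is printed; genes that make up a count of 5 or fewer were named after their values were seen. Coordinates are those of GENCODE M21 (GRCm38), and windows those of RefSeq. The rules were tested on simulated data. Alternatives changed the denominator, the mean for the median, the thresholds and the wells kept. With 1 culture, shares and intervals cover counting error only and no p-value was computed. Python 3.11.15 was used with pandas 2.3.3, scipy 1.17.1, numpy 2.4.6 and matplotlib 3.10.9.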

Additional observations from a re-analysis of the deposited data

How the results depend on the processing

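The count of members at least 2-fold higher in RNA-rich wells, 3 as reported, was 1 by medians of wells (8.14% of all genes), 1 with mitochondrially encoded genes and Rn45s left out of the total (3.27%), 16 per spike-in molecule (91.7%), 7 at 1.5-fold (36.9%) and 1 without the highest well of each range (15.4%). The count of those lower, 4 as reported, was 1 by medians (6.22%), 0 per spike-in molecule (0.0633%) and 2 where a mean of 5 molecules was required (3.75%). The log2 ratio changed sign for Igf2 by medians (-0.97) and without keratin-high wells (-0.59), for H19 without E02 and D02 (-0.060), and per spike-in molecule for Meg3 (0.31), Kcnq1ot1 (0.24), Peg3 (0.14) and Nnat (0.76). Leaving out mitochondrially encoded genes moved the median log2 ratio of all genes from 0.40 to -0.01, and spike-in scaling moved it to 2.02. Members above technical variation, 11 as reported, were 6 without keratin-high wells (5.43%), 5 without E02 and D02 as well (4.06%) and 5 with the highest 2 wells left out (4.00%), where fewer wells enter by construction. Pairs of members with a rho of at least 0.4 in size were 6 with keratin-high wells. Members at least 2-fold lower in keratin-high wells were 3 by medians (7.47%), where a gene with a median of 0 cannot be counted. For the other shifts the cause was not tested. The alternatives without E02 and D02, and without the highest well, were chosen after seeing the data. No paired analysis was possible because the library forms that share a replicate number share a single column of the table, and no result comes from a test. Depth limits the members under 1 molecule per well, for which no fold or variation was called.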
